A study of Mus musculus with 6 samples.

Results

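The AP-1 subunits Jun, Junb, Jund, Fos and Fosb, the orphan nuclear receptor Nr4a1 and the immediate early genes Egr1, Ier2, Klf2 and Klf6 were examined in mouse bone marrow cells that carried an Hhex retrovirus or the vector without Hhex. The genes were chosen by name, as transcription factors and regulators that cells switch on early after a stimulus. Earlier results of these data were known when they were chosen. All 10 were among the 12161 genes of the expression table. RNA was sequenced from LSK cells, the lineage-negative, Sca1-positive and Kit-positive marrow fraction that holds stem cells and early progenitors. The cells came from C57BL/6 mice and were labelled LSK and bone marrow in every library. The MIG-Hhex group had 3 libraries from cells transduced with MIG-Hhex, the GFP-marked vector with Hhex, a homeobox transcription factor of early blood and endothelium. The MIG group had 3 libraries from cells with MIG, the GFP vector alone. The genotype was labelled Hhex in the MIG-Hhex libraries and wild-type in the MIG libraries. All cells were sorted, transduced on retronectin-coated plates and kept for 2 days in StemPro-34 medium. The medium held mSCF and mFlt-3 at 50 ng/mL each, mIL-6 at 10 ng/mL, and at the same 10 ng/mL a cytokine that the labels write as mL-3. RNA came from sorted GFP-positive cells, so culture, cytokines and viral transduction were common to both groups. The labels call the 3 libraries of a group biological replicates, and their titles name them WT3, WT691 and WT703 under both vectors. The values therefore describe cultured and transduced cells with added Hhex, not cells taken directly from marrow or loss of the gene.

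Immediate early genes are transcribed within minutes of a growth factor, cytokine or stress signal, from promoters that pre-existing factors such as SRF, its ternary complex partners, CREB and MEF2 already occupy. Jun and Fos proteins pair through leucine zippers to form AP-1, which binds a short palindromic DNA site. Jun proteins can also pair with each other, whereas Fos proteins need a partner. Egr1, Nr4a1, Klf2 and Klf6 bind DNA through zinc fingers and in turn change later genes. In mouse blood, Egr1, Nr4a1 and Junb have each been tied to the control of stem cell or myeloid cell growth, and Klf2 to quiescence and migration of T cells.

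Of the genes studied, Nr4a1 and Jund were higher and Jun was lower in MIG-Hhex cells than in MIG cells. The other 7 did not pass the test. Klf2 and Klf6 did pass in a fit that compares libraries within replicates, Klf2 close to the threshold of 0.05 (limma adjusted p = 0.0481 and 0.0108). Fos, Fosb and Egr1 varied far more between replicates than between vectors, and were high in both WT691 libraries. The sequences upstream of 4 of the genes show which known kinds of promoter element they hold. RefSeq promoter windows of GRCm38.p6, from 250 bases before to 50 bases after the annotated start, were searched for 8 of the 10 genes. Egr1 was left out of the search by choice, and no window was at hand for Ier2. Jun and Nr4a1 are shown because their vector differences were the largest, Klf2 because it shares an element with Jun, and Fosb because it shares elements with Nr4a1. The 250 bases before the start are given 5′ to 3′ on the gene's strand. Capitals mark the MEF2 site in Jun, TGCGTCA and the EGR site in Nr4a1 and Fosb, and the EGR and MEF2 sites in Klf2, on either strand.
Jun, chr4:95052223-95052472, minus strand: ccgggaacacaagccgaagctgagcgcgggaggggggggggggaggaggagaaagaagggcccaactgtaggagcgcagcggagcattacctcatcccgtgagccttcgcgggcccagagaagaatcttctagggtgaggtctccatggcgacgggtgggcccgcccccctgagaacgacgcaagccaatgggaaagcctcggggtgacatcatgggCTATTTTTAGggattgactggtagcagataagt
Nr4a1, chr15:101266596-101266845, plus strand: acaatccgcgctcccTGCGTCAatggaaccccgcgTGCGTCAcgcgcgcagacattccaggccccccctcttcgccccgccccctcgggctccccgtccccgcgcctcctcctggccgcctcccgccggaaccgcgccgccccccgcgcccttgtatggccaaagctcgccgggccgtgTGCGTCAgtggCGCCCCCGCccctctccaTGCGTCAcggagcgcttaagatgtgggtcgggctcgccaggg
Klf2, chr8:72318812-72319061, plus strand: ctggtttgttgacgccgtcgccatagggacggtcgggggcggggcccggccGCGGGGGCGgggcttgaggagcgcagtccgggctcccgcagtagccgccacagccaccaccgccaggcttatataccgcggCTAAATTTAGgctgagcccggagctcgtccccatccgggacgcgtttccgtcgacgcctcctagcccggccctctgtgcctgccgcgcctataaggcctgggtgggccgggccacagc
Fosb, chr7:19310046-19310295, minus strand: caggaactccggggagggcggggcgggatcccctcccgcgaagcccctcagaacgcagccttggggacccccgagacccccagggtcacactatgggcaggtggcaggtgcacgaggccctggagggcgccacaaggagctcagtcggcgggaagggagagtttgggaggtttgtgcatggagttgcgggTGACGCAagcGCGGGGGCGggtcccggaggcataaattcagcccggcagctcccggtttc

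A MEF2 site lay in the windows of Jun and Klf2, from base -33 to -24 before the start of Jun and from base -118 to -109 before that of Klf2. The promoters of 3.7% of all 27025 RefSeq genes with a window held such a match. The EGR site GCGNGGGCG occurred in the windows of Nr4a1, Klf2 and Fosb, and in those of 6.27% of all genes. The letters TGCGTCA, which resemble a cyclic AMP response element and were looked for after the promoter windows had been read, occurred at 4 places in Nr4a1 and at 1 in Fosb. Of all genes, 2.42% had them. In Nr4a1 they lay from base -235 to -229, -215 to -209, -71 to -65 and -42 to -36, and the EGR site from -60 to -52. In Fosb they lay from base -60 to -54 and the EGR site from -50 to -42. The matches did not overlap. No match to the AP-1 site TGANTCA, the full cyclic AMP response element TGACGTCA or the CArG box bound by SRF was found in any of the 8 windows. These occurred in 8.97%, 2.03% and 1.81% of all genes. With 8 windows and shares this low, finding no match says little. Sites outside the 300 bases of a window, or near Egr1 and Ier2, were not searched. Both strands were searched for each motif. Only the 6 stated patterns counted, so near forms such as tgacatca, which the Jun and Klf6 windows hold, are not marked. The windows of Junb, Jund, Fos and Klf6 held none of the 6 motifs. A match describes letters only, and binding was not measured.

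Some of the 10 genes shared further features that the choice by name did not use. Junb, Jund, Ier2 and Klf2 lie on chromosome 8, and Jun, Junb, Jund and Ier2 have a single exon in GENCODE. The shares of all genes on chromosome 8 or with a single exon were not counted. Jun lies on chromosome 4 from 95049036 to 95052222, Jund on chromosome 8 from 70697739 to 70700616, and Nr4a1 on chromosome 15 from 101253902 to 101274795 (GRCm38, the build of mm10). The starts used for the Nr4a1 and Fosb windows lie inside the spans of these genes, downstream of their outermost annotated start. For Jund the longest GENCODE transcript (1668 bases, 1 exon) is shorter than this span, so its start may differ between annotations. No other RefSeq gene overlaps any of the 10. Transcript GC content was above the median of all genes (49.6%) for 9 of the 10. It was highest for Jund at 67.1% and lowest for Klf6 at 42.4%. Across all genes GC content went with the vector difference (Spearman rho 0.301, genes not being independent), so values with the GC trend removed are given beside the calls that it ends and for the genes that the results turn on.

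Hhex itself stood at 7.61, 9.34 and 9.06 (log2 value) in the MIG-Hhex libraries of WT3, WT691 and WT703, against 5.18, 5.05 and 5.13 in the MIG libraries. Reads of the vector's Hhex and of the cell's own gene are not separated in this value. All values are normalized log2 values from the authors, which behave like expression per unit of gene length, and their sequencing depth is unknown. Of the LSK markers, Kit lay between 4.44 and 4.77 in MIG-Hhex libraries and between 4.62 and 4.86 in MIG libraries. Ly6a, which encodes Sca1, was at 3.55 and 3.18 in the MIG-Hhex and MIG libraries of WT3 and between 5.89 and 6.25 in the other 4. Both WT3 libraries were on flow cell C3RJFACXX and the others on C5LWPANXX. The flow cell term of the model passed the threshold for 46.6% of all genes, so the WT3 libraries stand apart, and replicate and flow cell cannot be told apart for them. Marker genes of other blood cells differed between the vectors. Of 13 neutrophil markers measured 7 rose and 2 fell, of 10 monocyte, macrophage and dendritic markers 4 rose and 3 fell, and of 7 mast cell and basophil markers 2 rose and 3 fell. The summed neutrophil markers ranged from 12.61 to 13.23 in MIG-Hhex libraries and from 12.85 to 13.26 in MIG libraries, as log2 of the summed linear values. The summed monocyte, macrophage and dendritic markers ranged from 7.27 to 8.06 in MIG-Hhex libraries and from 8.01 to 8.52 in MIG libraries, and the summed mast cell and basophil markers from 7.32 to 8.18 in MIG-Hhex libraries and from 7.63 to 8.78 in MIG libraries. Mpo, a granule enzyme of early myeloid cells, lay between 6.32 and 8.79 with MIG-Hhex and between 10.6 and 11.4 with MIG. Elane, also of the neutrophil list, overlapped between the groups, from 9.31 to 10.96 with MIG-Hhex and from 9.54 to 10.79 with MIG. The median difference of the 13 neutrophil markers was 0.54, so Mpo does not stand for that list. Of 11 erythroid markers 3 rose and 2 fell, of 8 megakaryocyte markers 3 rose and 1 fell, of 12 LSK markers 1 fell, and of 3 stromal markers 1 rose. Of 14 lymphoid markers 4 were in the table, among which 1 fell. Myeloid cells also transcribe the genes studied, and the part of these marker differences in the results was not tested. In such bulk libraries, fewer cells of a kind and less RNA per cell cannot be told apart.

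Differences between vectors were tested with limma on all 12161 genes, with flow cell as a second term and p-values adjusted over all genes. With the threshold of 0.05 this called 18% of all genes, 9.44% higher and 8.52% lower with MIG-Hhex. Of the 10 genes, 3 were called, 2 higher and 1 lower, and with so few genes that share is no evidence that they differ from the rest. The groups did not overlap for 3 of the 10 (Jun, Nr4a1 and Klf2), against 21.2% of all genes. The sign was the same in all 3 replicate pairs for 5 of the 10, against 59.8% of all genes. The median difference of the 10 was 0.09, against -0.02 for all genes, both on the log2 scale.

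The Jun family gives the partners that Fos proteins need, and its transcripts did not move together. Jun, the classical partner of Fos and a target of JNK kinases, had log2 values of 2.09, 2.33 and 2.00 in the MIG-Hhex libraries of WT3, WT691 and WT703, against 2.88, 3.15 and 2.99 in the MIG libraries. Every MIG-Hhex library lay below every MIG library. Jun was thus 1.83-fold lower with MIG-Hhex (log2 difference -0.87, SE 0.12, limma adjusted p = 0.00621), and the difference was -0.79, -0.83 and -0.99 in the single pairs. It remained called in all 9 left-out runs, each lacking 1 library or both libraries of 1 replicate (limma adjusted p from 0.0181 to 0.0366). The run lacking both WT3 libraries is the fit within flow cell C5LWPANXX alone, with a difference of -0.91 (limma adjusted p = 0.0299). The runs lacking 1 WT3 library gave the same -0.91, because the flow cell term takes up the remaining WT3 library. The 9 runs, here and below, are thus not 9 separate checks.

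Jund, the Jun protein that resting cells keep and that slows growth in fibroblasts, had log2 values of 4.38, 3.96 and 3.90 in the MIG-Hhex libraries of WT3, WT691 and WT703, against 3.97, 3.06 and 3.37 in the MIG libraries. Each MIG-Hhex library was above the MIG library of its own replicate, but the groups overlapped, with the MIG library of WT3 above 2 MIG-Hhex libraries. Jund was 1.53-fold higher with MIG-Hhex (log2 difference 0.62, SE 0.11, limma adjusted p = 0.0137; 0.46 with the GC trend removed, adjusted p = 0.0118). The call was lost without the MIG-Hhex library of WT691 (0.57, limma adjusted p = 0.0612), without both WT703 libraries (0.66, adjusted p = 0.0712) and without the flow cell term (adjusted p = 0.323). Within flow cell C5LWPANXX alone the difference was 0.72 (limma adjusted p = 0.0318). Junb, which restrains the growth of myeloid progenitors in mice, had log2 values of 5.25, 5.55 and 5.05 with MIG-Hhex and 5.17, 5.13 and 5.19 with MIG. Its difference was 0.12 (95% interval -0.17 to 0.42, limma adjusted p = 0.527). It turned to -0.03 once the GC trend was removed.

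Since Jun fell and Jund rose, the balance within the family differed between vectors. Jund minus Jun was 2.29, 1.64 and 1.90 on the log2 scale in the MIG-Hhex libraries of WT3, WT691 and WT703, against 1.08, -0.09 and 0.38 in the MIG libraries. Every MIG-Hhex library was above every MIG library in this contrast, which was chosen after the values were seen and was not tested. Junb minus Jun lay between 3.05 and 3.23 with MIG-Hhex and between 1.98 and 2.29 with MIG. On this scale Junb was the most abundant of the 3 Jun transcripts in all 6 libraries.

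Fos and Fosb encode partners that bind DNA only together with a Jun protein, and neither differed between vectors beyond its spread. Fos had log2 values of 3.72, 4.63 and 3.18 in the MIG-Hhex libraries of WT3, WT691 and WT703, against 3.20, 4.90 and 2.83 in the MIG libraries. The highest Fos value with either vector was that of WT691. The difference was 0.20 (SE 0.58, limma adjusted p = 0.839) and its 95% interval ran from -1.19 to 1.59. In a fit with the replicate name as a block, which compares libraries within replicates, its SE was 0.15 (limma adjusted p = 0.372). Fosb was at -3.40, -0.30 and -1.68 with MIG-Hhex and at -4.13, 0.67 and -2.10 with MIG. It was the weakest of the 10 transcripts and again highest in WT691, and its difference of 0.06 had an interval from -1.81 to 1.93 (limma adjusted p = 0.964). The SE of Fosb was 0.78, and 0.44 with the block (limma adjusted p = 0.929).

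**Figure D1:**
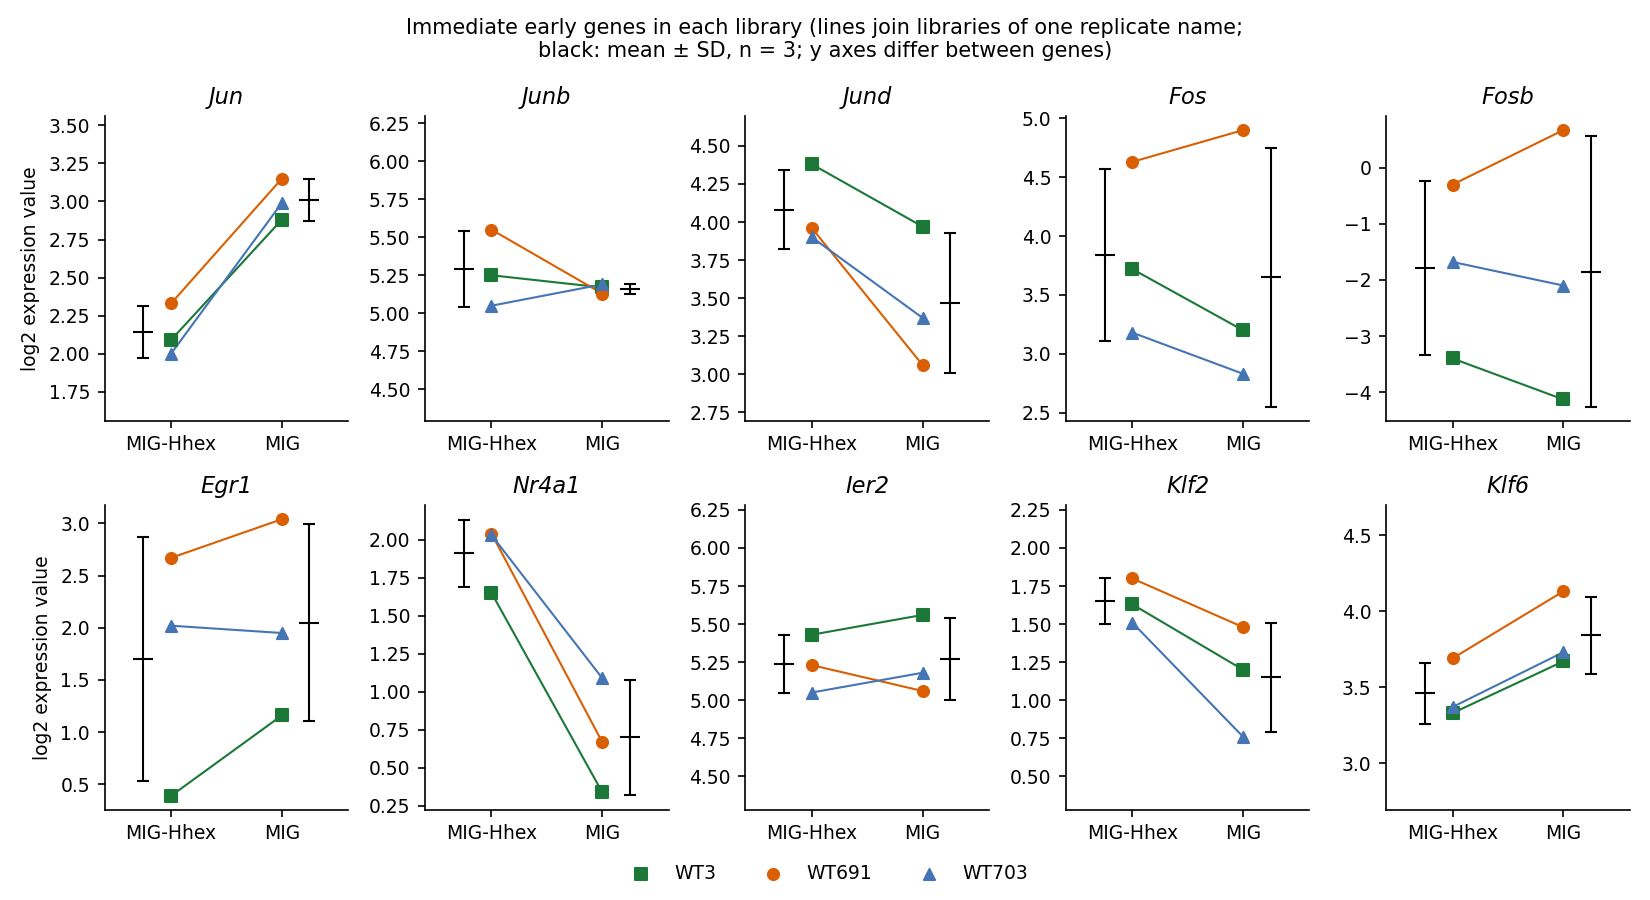
Log2 expression value (y axis, scaled per gene) of the 10 genes in MIG-Hhex and MIG libraries (x axis), with lines joining the libraries of one replicate name and black bars for the mean and SD of 3 libraries. Nr4a1 and Jund run upward toward MIG-Hhex in every replicate and Jun downward, whereas the Fos, Fosb and Egr1 lines are set apart by replicate, with WT691 at the top.

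Nr4a1, also called Nur77, is an orphan receptor that acts without a known hormone and that mouse patrolling monocytes need. Its log2 values were 1.65, 2.04 and 2.03 in the MIG-Hhex libraries of WT3, WT691 and WT703, against 0.34, 0.67 and 1.09 in the MIG libraries. The groups did not overlap. Nr4a1 was 2.31-fold higher with MIG-Hhex (log2 difference 1.21, SE 0.16, limma adjusted p = 0.00523), the largest difference among the 10 genes, with 1.31, 1.37 and 0.94 in the single pairs. With the GC trend removed it was 1.08 (limma adjusted p = 0.00819). The call held in every left-out run (limma, with adjusted p from 0.0123 to 0.0332). Within flow cell C5LWPANXX alone the difference was 1.15 (adjusted p = 0.0301). Without the flow cell term the call was lost (limma adjusted p = 0.0714); of the 10 genes that fit called Jun (adjusted p = 0.0488), and of all genes 1.78%.

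Egr1, a zinc finger factor of growth factor responses, had log2 values of 0.39, 2.67 and 2.02 in the MIG-Hhex libraries of WT3, WT691 and WT703, against 1.16, 3.04 and 1.95 in the MIG libraries. Both WT3 libraries were the lowest of their group and both WT691 libraries the highest. The difference between vectors was -0.35 (SE 0.32, limma adjusted p = 0.482). With the replicate block its SE was 0.17 (limma adjusted p = 0.185). Ier2, a small nuclear protein of the immediate early response, had the highest mean level of the 10 and the smallest difference. It lay at 5.43, 5.23 and 5.05 with MIG-Hhex and at 5.56, 5.06 and 5.18 with MIG. Its difference of -0.03 had the narrowest interval of the 10, from -0.21 to 0.14 (limma adjusted p = 0.804). With the GC trend removed it was -0.18 (SE 0.06, limma adjusted p = 0.108).

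The Krüppel-like factors Klf2 and Klf6 leaned in opposite directions. Klf2, known for keeping T cells quiescent, had log2 values of 1.63, 1.80 and 1.51 in the MIG-Hhex libraries of WT3, WT691 and WT703, against 1.20, 1.48 and 0.76 in the MIG libraries. The groups did not overlap, yet the difference of 0.50 (SE 0.21) did not pass (limma adjusted p = 0.15). Klf6, which is induced in many tissues by injury, was at 3.33, 3.69 and 3.37 with MIG-Hhex and at 3.67, 4.13 and 3.73 with MIG. The groups overlapped by a small margin, every pair was lower with MIG-Hhex, and the difference of -0.38 (SE 0.13) did not pass (limma adjusted p = 0.0932). With the replicate name as a block, which compares each MIG-Hhex library with the MIG library of its own replicate, both passed, Klf2 at a limma adjusted p of 0.0481 and Klf6 at 0.0108. That fit called 5 of the 10 genes, against 24.5% of all genes, with 3 higher (12.4% of all genes) and 2 lower (12.1%). With the GC trend removed as well, Klf2 stood at 0.35 (limma adjusted p = 0.0894) and Klf6 at -0.27 (adjusted p = 0.0312).

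**Figure D2:**
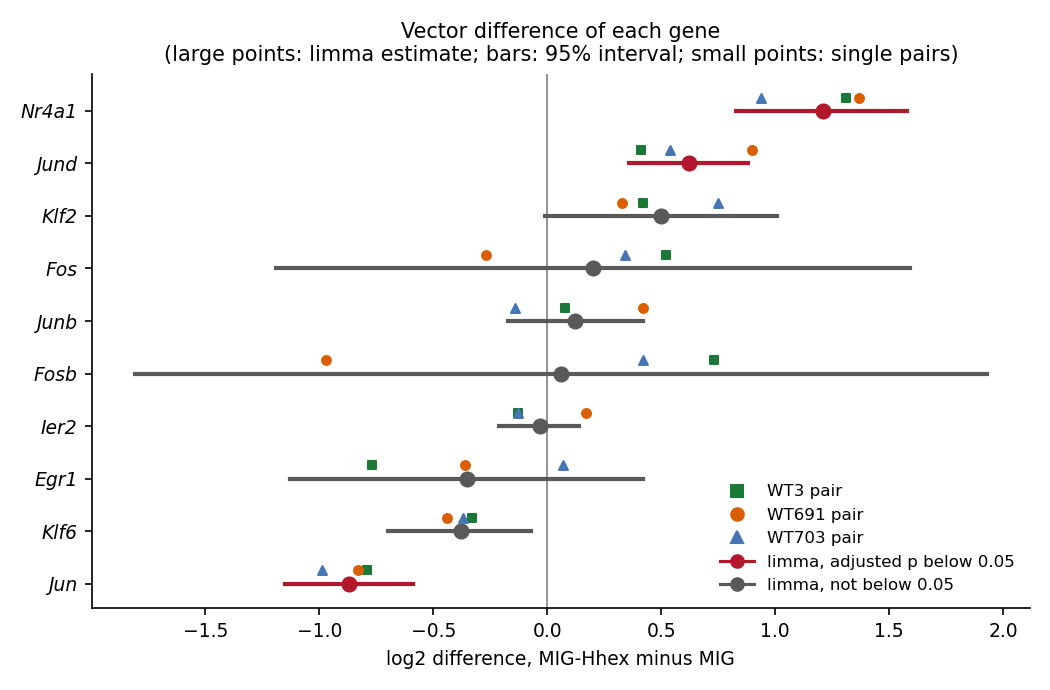
Log2 difference between MIG-Hhex and MIG (x axis) for each of the 10 genes (y axis, ordered by the difference), with the limma estimate and its 95% interval as large points and bars and the 3 single pairs as small points. Nr4a1 at 1.21, Jund at 0.62 and Jun at -0.87 are the genes in red that passed the threshold, and the intervals of Fos and Fosb span more than 1 on both sides of 0.

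By level over all 6 libraries, Ier2 (mean 5.25) and Junb (5.23) came first, followed by Jund (3.77), Fos (3.74) and Klf6 (3.65), then Jun (2.57), Egr1 (1.87), Klf2 (1.40) and Nr4a1 (1.30), with Fosb (-1.82) last. With both vectors pooled, Ier2 and Junb did not differ beyond their spread, nor did Jund, Fos and Klf6 among themselves. The same held for Egr1, Klf2 and Nr4a1. In the MIG-Hhex libraries alone, Jund (3.90 to 4.38) lay above Klf6 (3.33 to 3.69), whereas the 2 overlapped with MIG. Jun and Egr1 lay closer than the spread of Egr1. Of the 10, 5 lay above the median gene of the table (3.56), and 9 were above 0 in every library. Of the 10, Fosb alone had values below 0, where the unknown offset of the log2 scale makes the size of a difference uncertain.

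The genes also differed in how much they varied among replicates of one vector. The SD within groups was 0.94 for Fos, 1.06 for Egr1 and 2.03 for Fosb, against a median of 0.243 over all genes, which placed them at the 95.7th, 96.9th and 99.6th percentile. These percentiles are over genes of every level, and Fosb and Egr1 are at the 3.7th and 26.8th percentile of level. This SD also takes in the difference between the flow cells. Jun (0.152), Junb (0.179) and Klf6 (0.224) lay below the median and Ier2 (0.231) close to it. WT691 and WT703 shared a flow cell, and Fos was higher in WT691 than in WT703 by 1.45 with MIG-Hhex and by 2.07 with MIG. For Fosb this replicate difference was 1.38 with MIG-Hhex and 2.77 with MIG, and for Egr1 it was 0.65 with MIG-Hhex and 1.09 with MIG. A gap of at least 0.5 with both vectors, a rule set after the values were seen, held for these 3 of the 10 genes and for 2.67% of all genes. The opposite gap of at least 0.5 held for 0 of the 10 and for 1.69% of all genes. The rule and the genes were chosen with the values in view, so these shares are a description only.

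**Figure D3:**
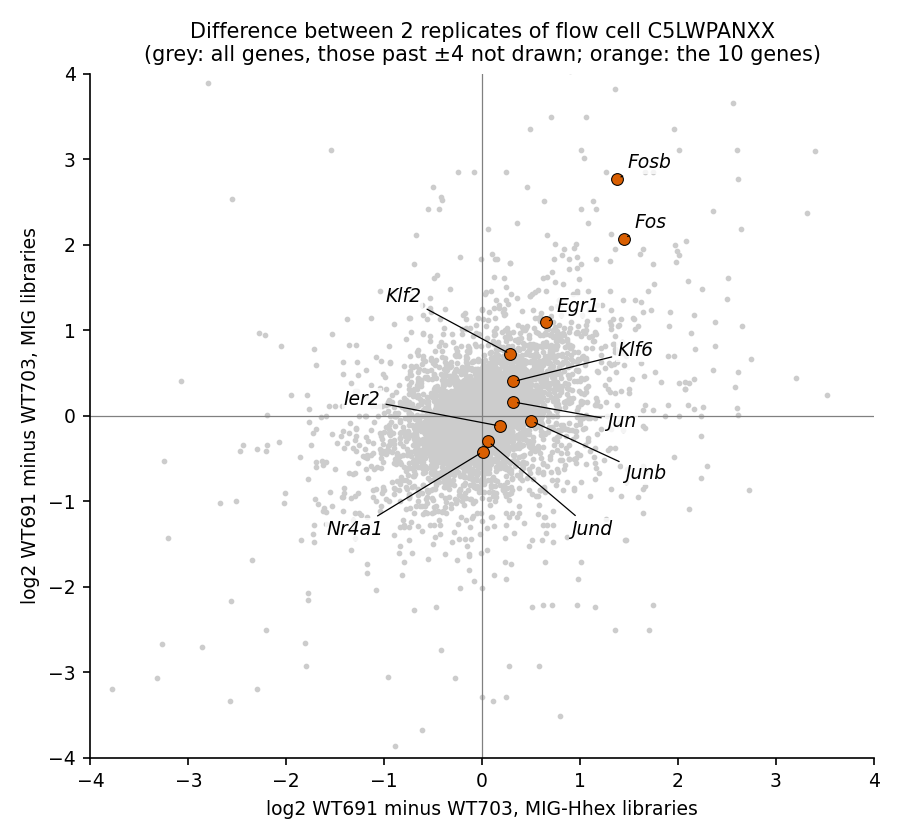
Log2 difference between replicates WT691 and WT703 in MIG-Hhex libraries (x axis) and in MIG libraries (y axis), for all genes in grey and the 10 genes in orange. Fos, Fosb and Egr1 lie toward the upper right, at 1.45 and 2.07, 1.38 and 2.77, and 0.65 and 1.09, while Nr4a1, Jund and Ier2 lie near 0 on the x axis and at or below 0 on the y axis.

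By the same rule, 7 of 167 other genes measured from the related lists described next were high in WT691 with both vectors (4.19%), among them Egr3, Klf4, Ier3, Dusp1, Tnfaip3 and Thbd. Dusp1, an immediate early phosphatase of MAP kinases, was higher in WT691 by 0.97 with MIG-Hhex and by 1.43 with MIG. Egr3, a relative of Egr1, was higher in WT691 by 1.01 with MIG-Hhex and by 2.41 with MIG. Egr3 lay below 0 in every library, and Klf4 and Thbd in some, where the unknown offset makes the size of a difference uncertain. None of 15 heat shock and dissociation stress genes met the rule, which says little where 2.67% of all genes met it. Between the flow cells, 4 of the 10 genes passed the threshold, against 46.6% of all genes. C5LWPANXX stood above C3RJFACXX for Fosb (2.91, SE 0.83, limma adjusted p = 0.0278) and Egr1 (1.64, SE 0.34, adjusted p = 0.00924), and below it for Jund (-0.60, SE 0.11, adjusted p = 0.00658) and Ier2 (-0.37, SE 0.08, adjusted p = 0.00919).

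The 5 genes with a profile most like that of Fos over the 6 libraries were Zfp516 (Pearson r 0.979), Nrg1 (0.96), Kdm5c (0.951), Eps15 (0.95) and Arhgap17 (0.947). Those most like Klf2 were Itga5 (0.981), Tlr1 (0.978), Bcl2l14 (0.974), Zfp948 (0.973) and Myadm (0.972). These are the highest of 10636 correlations over 6 libraries that share vectors and flow cells, so they describe likeness only.

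Other genes of the same families and of the pathway around them were counted in 11 lists, with 167 distinct genes measured. Of these 22 rose and 14 fell with MIG-Hhex, 21.6% in all against 18% of all genes, with a median difference of 0.04. With the replicate block 32 rose and 24 fell, against 24.5% of all genes called in that fit. Of the 31 called list genes picked for naming, all 31 were called with the block, 23 with the GC trend removed and 10 in every left-out run. Among 13 other AP-1 subunits and partners, 4 rose and the remaining 9 did not pass. Maf, a large bZIP factor of macrophages and lymphocytes, averaged 1.20 ± 1.16 in MIG-Hhex libraries and -0.59 ± 1.57 in MIG libraries (SD, n = 3 each). It rose by 1.79 (SE 0.24, limma adjusted p = 0.00581) and kept its call in all 9 left-out runs. Its mean with MIG was below 0, and with a pseudocount of 1 the difference was 0.93. Fosl2, the Fos relative Fra-2, rose by 0.65 and Maff, a small Maf protein without an activation domain, by 0.64. The calls of Fosl2 and Maff were each lost in 8 of these runs, where adjusted p reached 0.105 for Fosl2 and 0.117 for Maff (limma).

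Of 4 measured EGR and NR4A relatives and NAB corepressors, 1 rose, Nab2, which binds EGR proteins and blocks their activity, by 0.59 (SE 0.13, limma adjusted p = 0.0255). Nr4a2, the relative of Nr4a1, stood at -0.50, not past the threshold (limma adjusted p = 0.177). Of 15 KLF and SP relatives, 1 rose, the erythroid factor Klf1, by 1.21 (SE 0.30; 0.70 to 1.57 in the 9 left-out runs). Of 4 other IER family genes, 1 rose, Ier5, by 0.34 (SE 0.09). The calls of Nab2, Klf1 and Ier5 were lost in 6, 5 and 9 of these runs, with adjusted p up to 0.125, 0.131 and 0.171 (limma). With the GC trend removed, Klf1 (1.06, limma adjusted p = 0.0526) and Ier5 (0.29, adjusted p = 0.0617) were not called.

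Among 44 other immediate early genes, 7 rose, 3 fell and 34 did not pass. Arl4c, a small GTPase of the membrane, rose by 1.80 (SE 0.23), the antiproliferative gene Btg2 by 1.12 (SE 0.17), and Id2, which blocks basic helix-loop-helix factors, by 1.08 (SE 0.13). The polo-like kinase Plk3 fell by 2.43 (SE 0.18, limma adjusted p = 0.00121), Cited2, a partner of the coactivators CBP and p300, by 0.50 and cyclin L1 (Ccnl1) by 0.41. Plk3, Cited2 and Id2 kept their calls in all 9 left-out runs, Arl4c and Btg2 lost theirs in 1 (limma adjusted p up to 0.0576 and 0.0583) and Ccnl1 in 7 (up to 0.124). Plk3 lay below 0 in all MIG-Hhex libraries, and with a pseudocount of 1 its difference was -1.41. With the GC trend removed Ccnl1 was not called (-0.28, limma adjusted p = 0.111). Of 9 dual specificity phosphatases, which switch MAP kinases off, 1 fell, Dusp16, a phosphatase that acts on JNK, by 1.22 (SE 0.15, limma adjusted p = 0.00453, called in all 9 left-out runs).

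**Figure D4:**
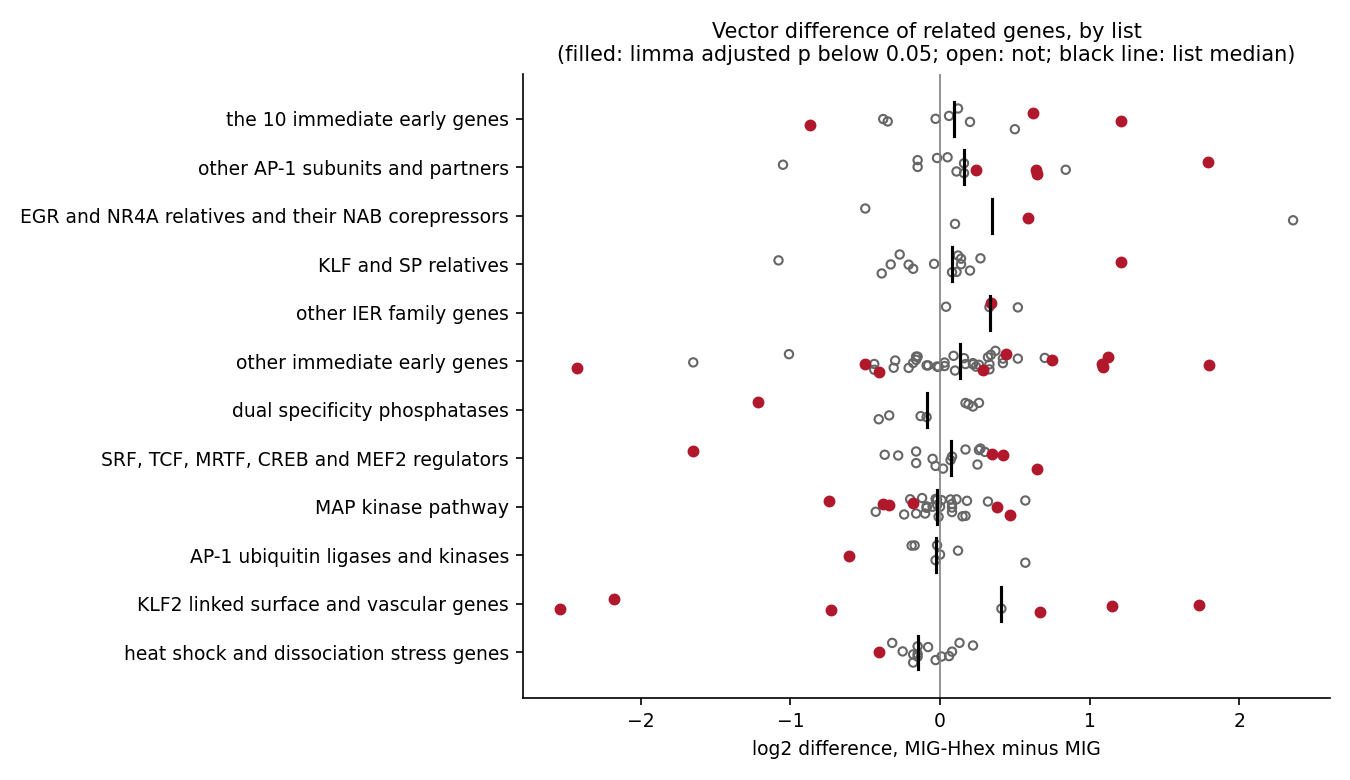
Log2 difference between MIG-Hhex and MIG (x axis) for the 10 genes and for the genes of 11 related lists (y axis), with filled points for genes that passed the threshold and black lines for list medians. Genes of most lists lie on both sides of 0, from Plk3 at -2.43 to Arl4c at 1.80 among the other immediate early genes.

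Upstream of these genes, 3 of 18 SRF, TCF, MRTF, CREB and MEF2 regulators rose and 1 fell. Hdac5 rose by 0.65 (SE 0.09) and Hdac7 by 0.42 (SE 0.10), while Hdac9 fell by 1.65 (SE 0.32). All are class IIa deacetylases that bind MEF2 factors and hold their targets silent. Mkl1, an SRF coactivator also called MRTF-A, rose by 0.35 (SE 0.10). Hdac5 kept its call in all 9 left-out runs, whereas Hdac7 and Mkl1 lost theirs in every run and Hdac9 in 5 (limma adjusted p up to 0.127, 0.151 and 0.0793). Hdac9 lay below 0 with MIG-Hhex, and with a pseudocount of 1 its difference was -0.63. With the GC trend removed Hdac7 stood at 0.27 (limma adjusted p = 0.0788) and Mkl1 at 0.22 (adjusted p = 0.124), neither called. Mkl1 was not called with the pseudocount either (limma adjusted p = 0.052). Srf itself stood at -0.16 (limma adjusted p = 0.139) and Mef2c at -0.37 (0.137), neither past the threshold.

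Of 31 MAP kinase pathway genes, 2 rose and 4 fell. Mapk7, the kinase ERK5 that acts on MEF2 factors, rose by 0.47 (SE 0.10) and Rps6ka1, the kinase RSK1 below ERK, by 0.38 (SE 0.08). Map2k4, which activates JNK, fell by 0.38 (SE 0.07), Map2k6, which activates p38, by 0.74 (SE 0.17) and the stress kinase Map3k5 by 0.34 (SE 0.08). Each of these 5 lost its call in 4 or more of the 9 left-out runs, with adjusted p up to 0.166 (limma). With the GC trend removed, Mapk7 (0.34, limma adjusted p = 0.05001) and Rps6ka1 (0.26, adjusted p = 0.0558) were not called. Of 8 ubiquitin ligases and kinases that act on AP-1 proteins, 1 fell, Rfwd2, the ligase COP1 that marks Jun protein for destruction, by 0.61 (SE 0.11, limma adjusted p = 0.0169; up to 0.0809 in left-out runs).

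Of 7 measured genes tied to Klf2 in mouse T cells and in endothelium, 3 rose and 3 fell, in a list chosen with earlier results known, where 18% of all genes were called. Among them, the gut-homing integrin Itgb7 rose by 1.73 (SE 0.07, limma adjusted p = 0.000397) and the chemokine receptor Ccr7 by 1.15 (SE 0.25). The sphingosine phosphate receptor S1pr1 fell by 2.54 (SE 0.47), thrombomodulin (Thbd) by 2.18 (SE 0.54) and Cd69, which holds S1pr1 inside the cell, by 0.73 (SE 0.08). Itgb7 and Cd69 kept their calls in all 9 left-out runs, Ccr7 and Thbd lost theirs in every run and S1pr1 in 3 (limma adjusted p up to 0.11, 0.0912 and 0.0653). Some values of Ccr7, S1pr1 and Thbd lay below 0, which makes the size of a difference uncertain. With a pseudocount of 1 the difference was 0.48 for Ccr7, -0.76 for S1pr1 and -0.73 for Thbd. Of 15 heat shock and dissociation stress genes, 1 fell, the heat shock factor Hsf2 by 0.41 (SE 0.09, limma adjusted p = 0.0323; up to 0.128 in left-out runs and 0.133 with the GC trend removed), and the other 14 did not pass.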

How the data were processed

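RNA of 6 libraries of GFP-sorted mouse LSK cells was sequenced and grouped by the vector label. The deposited table gives 1 log2 value per library for 12161 genes, normalized by the authors. The submitters' processing notes name Subread, featureCounts, limma, edgeR and mm10, with versions and order of steps not given in the sources used here. Linear values times transcript length summed to nearly equal totals (highest over lowest library 1.03, without length 1.16). Depth is unknown, so no count model was run.

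The log2 values were fitted with limma 3.58.1 (R 4.3.3) with flow cell and vector as terms, eBayes with a mean-variance trend, two-sided p-values and Benjamini-Hochberg adjustment over all genes at 0.05. No gene was filtered out, 3 residual degrees of freedom remained, and the fit was tested on simulated data. Differences are MIG-Hhex minus MIG. Deviations from group means correlated at 0.742, 0.585 and 0.656 between the libraries titled WT3, WT691 and WT703, so these names pair the libraries. The fit with the replicate block is printed for the genes studied where it changes a call, for Fos, Fosb and Egr1, and for the lists as counts. Alternatives were no flow cell term, the block, 2 scalings, a pseudocount of 1, a filter on the mean, no trend, removal of the GC trend (GC known for 99.05% of genes) and leaving out libraries.

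The genes studied and all lists were chosen with earlier results of these data known. Named from each list were up to 3 genes with the smallest p in each direction among those called. The markers named were Kit, Ly6a, Elane and Mpo. Nr4a2, Srf, Mef2c and the genes high in WT691 were named after their values were seen. A pair of list genes that the counts include is not reported here by name. Likeness to Fos and Klf2 was ranked by Pearson r among genes with a mean log2 value of at least 0. Promoters are from RefSeq (GRCm38.p6).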

Additional observations from a re-analysis of the deposited data

How the results depend on the processing

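The calls of Nr4a1, Jund and Jun held with median centring, quantile normalization, a pseudocount of 1, the filter on the mean, no mean-variance trend, the replicate block and the GC trend removed, alone or with the block. Fosb has no value under that filter. Dropping the flow cell from the model left 119 higher and 98 lower genes, of the 10 genes 0 higher (limma; 2 at an unadjusted p under 0.05) and 1 lower, and of the related lists 2 higher and 2 lower. Without the mean-variance trend 638 genes were lower and 14 list genes higher. With the replicate block 2 of the 10 genes and 24 list genes were lower (32 list genes higher), and with the GC trend removed as well 2 and 28; it changed no other call among the 10 than those of Klf2 and Klf6. Leaving out libraries or replicate names gave 355 to 835 higher and 270 to 634 lower genes, 1 to 2 higher and 1 lower of the 10, and 6 to 12 higher and 4 to 10 lower list genes, the fewest higher genes without replicate WT703. Of genes that were not called, Junb turned to -0.03 with the GC trend removed, with or without the block, and ranged from -0.03 to 0.26 in the left-out runs. Fosb turned to -0.12 with the pseudocount and to -0.05 with the GC trend removed, and ranged from -0.63 to 0.95. Fos ranged from -0.35 to 0.83 and Ier2 from -0.13 to 0.02 in the left-out runs. Ier2 moved further, to -0.18, with the GC trend removed (limma adjusted p = 0.108, and 0.0969 with the block as well). The cause of these shifts was not tested. Depth is unknown, and the unknown offset limits the size of differences for genes with values below 0.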

Other observations

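Some related genes had differences of more than 1 on the log2 scale without passing the test, most of them at low levels. Egr3, a relative of Egr1, averaged -1.46 with MIG-Hhex and -3.82 with MIG, a difference of 2.36 (SE 0.74, limma adjusted p = 0.0723). Errfi1, which inhibits the EGF receptor, averaged -2.51 with MIG-Hhex and -0.86 with MIG (difference -1.65, SE 0.47, limma adjusted p = 0.0586). Atf3, a stress-induced partner of Jun, averaged -1.68 with MIG-Hhex and -0.63 with MIG (difference -1.05, SE 0.37, limma adjusted p = 0.099). Ptgs2, the prostaglandin synthase COX-2, averaged -1.21 with MIG-Hhex and -0.20 with MIG (difference -1.01, SE 0.30, limma adjusted p = 0.0614). Klf4, a factor of monocyte differentiation, differed more by replicate. It was at 2.71 in the MIG-Hhex and 3.19 in the MIG library of WT3, and its means were 0.77 with MIG-Hhex and 1.85 with MIG (difference -1.08, SE 0.52, limma adjusted p = 0.195). These genes were picked after their values were seen, and their differences are values, not calls.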
